A study of Homo sapiens with 6 samples.

Results

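Most aldehyde dehydrogenases are enzymes that oxidise reactive aldehydes to carboxylic acids with NAD or NADP as the acceptor. The 10 genes described here, ALDH1A1, ALDH1A2, ALDH1A3, ALDH1B1, ALDH2, ALDH3A1, ALDH3A2, ALDH3B1, ALDH7A1 and ALDH18A1, were found by gene symbol among the 58735 genes of the count table. They belong to a human family of 19 genes, and the other 9 are given for comparison. RNA was sequenced from HCT-8, an established human colorectal adenocarcinoma line kept as a monolayer in RPMI-1640 medium with fetal bovine serum. The control group is 3 libraries from cells with no treatment. The other group is 3 libraries from cells given 5-fluorouracil (5-FU) at its 10% inhibitory concentration. 5-FU is a uracil analogue used against bowel cancer, whose metabolites inhibit thymidylate synthase and are built into RNA and DNA. The labels used here state neither a molar dose nor a duration. They also do not say whether each replicate was its own culture, and the p-values therefore describe the spread of these libraries, which could be technical only.

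In the gut and its tumours, aldehyde dehydrogenase activity is widely used to mark stem-like cells, a property most often assigned to ALDH1A1 and, in colon, also to ALDH1B1. The ALDH1A enzymes make retinoic acid from retinaldehyde, and retinoic acid then acts through nuclear receptors. Other members work in the mitochondrial clearance of acetaldehyde (ALDH2, ALDH1B1), the oxidation of aldehydes from lipid peroxidation and fatty alcohols (the ALDH3 enzymes), lysine breakdown (ALDH7A1) and proline synthesis (ALDH18A1).

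After 5-FU, transcripts of 5 of the 10 genes were lower (ALDH1B1, ALDH2, ALDH7A1, ALDH3A1 and ALDH18A1) and those of 2 were higher (ALDH1A1 and ALDH1A2). ALDH1A3, ALDH3A2 and ALDH3B1 did not pass. The test was edgeR's quasi-likelihood test over all 19771 tested genes at a Benjamini-Hochberg adjusted p under 0.05, and all 10 genes entered it. ALDH1A1 (6, 14 and 8 control counts) and ALDH1A2 (0, 7 and 1) met the count filter only through the 5-FU libraries. In the same test 70.2% of all genes passed, 33.9% as lower and 36.3% as higher, so the members' counts stand against a background in which most genes changed. Among the 7 members with a mean count of at least 1000, 5 were lower and the other 2 (ALDH3A2 and ALDH3B1) did not pass, where 59.9% of all genes of that level were lower and 17.7% higher. Both members with a mean count under 50 were higher, as were 57.6% of all such genes. A gene this low can enter through the group where it is higher, and the 57.6% carries the same selection. The median log2 fold change was -0.31 over the 10 members and 0.09 over all tested genes. The members' mean was 0.08, of the opposite sign to their median, since the rises of ALDH1A1 and ALDH1A2 were large on this scale.

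Totals ran from 18459939 to 23495607 counts per library. Levels are CPM, counts set against library size, after TMM scaling, which sets libraries side by side on the genes that differ least. Mitochondrially encoded transcripts took 4.66% to 4.88% of counts in control and 25.5% to 28.5% in 5-FU libraries. That shift bears on any plain share of counts. The 10 genes together made up 1130 ± 52.3 CPM of plain library totals in control and 819 ± 10.8 in 5-FU libraries, without overlap. With mitochondrially encoded transcripts left out of the totals they had 1186 ± 56.1 and 1118 ± 28.9 CPM, with overlapping groups (SD over 3 libraries a group; exact two-sided permutation p = 0.1 and 0.2, where 3 against 3 cannot go below 0.1). In bulk RNA, fewer cells of a type and less RNA per cell cannot be told apart. Markers of colorectal epithelium summed to 4686 to 6531 CPM in control and 3504 to 4478 CPM in 5-FU libraries, with 7 of 8 tested and CDX1 too low to test. KRT8 (2828 and 1905 CPM) made up the largest part of that sum; KRT8, EPCAM and CDX2 were lower, whereas CDH1, KRT18, KRT19 and VIL1 did not pass. Fibroblast markers summed to 16.0 to 20.5 and 34.4 to 64.7 CPM, most of it COL1A1, with DCN and LUM at 0 counts in all 6 libraries. Endothelial markers summed to 2.17 to 3.12 and 3.55 to 5.55 CPM, and leukocyte markers to 6.64 to 7.30 and 5.58 to 7.29 CPM. The part of these markers in the results was not tested.

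**Figure D1:**
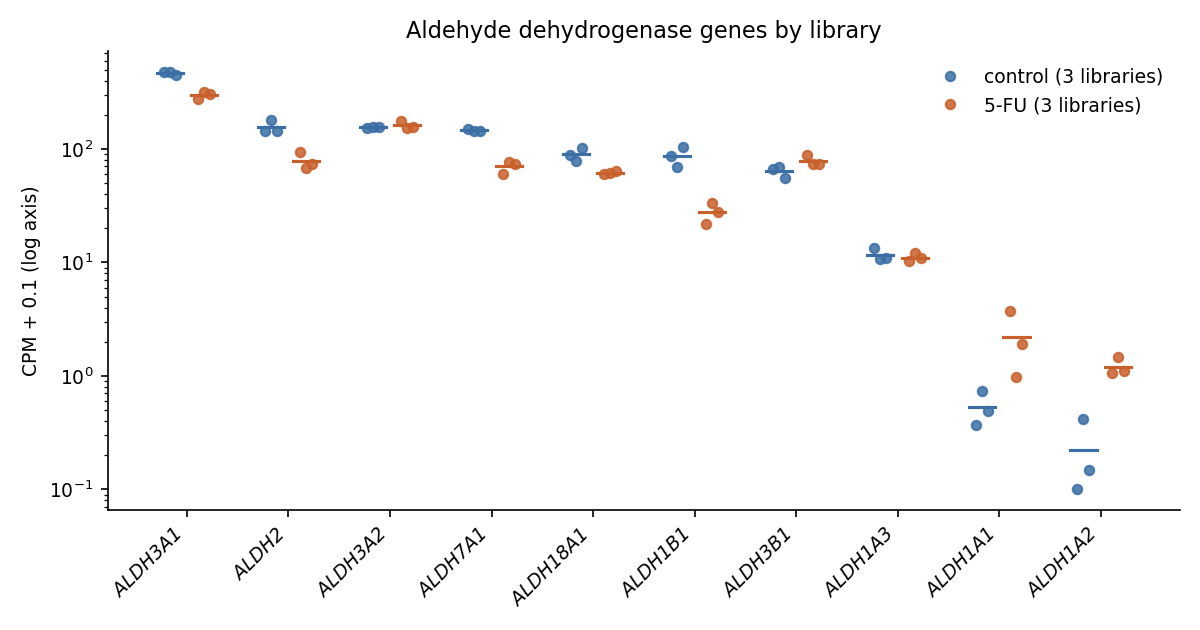
CPM of the 10 aldehyde dehydrogenase genes in each library, plotted as CPM + 0.1 on a log axis, with genes ordered by control mean; points are libraries (3 control, 3 5-FU) and bars are group means. ALDH3A1 was highest in all 6 libraries, and ALDH1A1 and ALDH1A2 stayed at 3.62 CPM or less.

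Upstream sequence was looked at for the members in the RefSeq promoter table (GRCh38.p14), which matched 8 of the 10 genes with 11 start sites; ALDH2 and ALDH3A1 had no entry. The 250 bases before the start are shown for the 2 members of largest decrease that have an entry and for the 2 that rose. They are lower case, 5′ to 3′ on the gene's strand, with the CCAAT motif, read on both strands (so ATTGG is its reverse), in capitals.
ALDH1B1: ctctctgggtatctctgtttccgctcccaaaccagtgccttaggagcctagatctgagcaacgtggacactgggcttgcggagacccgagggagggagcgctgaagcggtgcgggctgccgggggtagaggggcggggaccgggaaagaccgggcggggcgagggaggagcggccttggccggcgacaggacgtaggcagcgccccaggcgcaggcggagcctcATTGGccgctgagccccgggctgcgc
ALDH7A1: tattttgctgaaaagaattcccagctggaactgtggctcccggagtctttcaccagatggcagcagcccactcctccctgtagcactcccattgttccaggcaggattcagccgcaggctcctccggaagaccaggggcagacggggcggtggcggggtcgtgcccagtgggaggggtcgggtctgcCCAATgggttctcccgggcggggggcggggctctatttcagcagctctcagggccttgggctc
ALDH1A1: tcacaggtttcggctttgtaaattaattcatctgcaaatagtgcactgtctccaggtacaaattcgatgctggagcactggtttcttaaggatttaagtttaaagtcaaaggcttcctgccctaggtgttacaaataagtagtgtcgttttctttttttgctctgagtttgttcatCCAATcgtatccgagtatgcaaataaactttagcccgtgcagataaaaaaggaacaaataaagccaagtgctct
ALDH1A2: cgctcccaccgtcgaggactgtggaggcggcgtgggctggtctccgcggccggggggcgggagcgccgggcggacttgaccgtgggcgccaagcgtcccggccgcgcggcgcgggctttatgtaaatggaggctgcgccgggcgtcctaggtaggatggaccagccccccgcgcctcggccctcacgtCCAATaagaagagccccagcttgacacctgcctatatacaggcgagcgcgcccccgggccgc
These windows lie at chr9:38392452-38392701 (plus strand), chr5:126595220-126595469 (minus), chr9:72953054-72953303 (minus) and chr15:58065712-58065961 (minus). A CCAAT match begins 26, 63, 74 and 62 bases before the start, in that order. The RefSeq start of ALDH1A1 lies 127389 bases inside the span that the count table gives for the gene, and that of ALDH1A2 432155 bases inside. ALDH1A2 has another start in the table, 483843 bases inside, whose window holds no CCAAT, and the window shown is the one that holds the motif. Over the 11 member windows 6 held the motif, against 32.0% of 35116 promoter windows of the same length, and it was present in members that rose and in members that fell. The ETS core GGAAG, the core of sites for the family of the factor ELF3 named in the study's title, was in 6 of 11 member windows and in 65.1% of all windows. GCGTG, the core read by the aryl hydrocarbon receptor (AHR), was in 3 of 11 windows (ALDH1A2, ALDH1A3 and ALDH3A2) and in 32.2% of all. The antioxidant response core TGACNNNGC (10.9% of all windows), the retinoid receptor core AGGTCA (12.1%) and TATAAA (10.7%) were in 0 of 11. Both strands were searched for each motif. A match is a stretch of letters and not evidence of binding.

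The ALDH1A genes encode the cytosolic enzymes of retinoic acid synthesis, and ALDH1A3 was the most abundant of them in every library. Its lead was smallest in 5-FU replicate 1, at 1.58 FPKM (counts scaled by gene length) against 1.15 for ALDH1A1. ALDH1A3 (ENSG00000184254, chromosome 15 at 100877714 to 100916626, plus strand of GRCh38) was at 13.2, 10.6 and 10.9 CPM in control and 10.1, 11.9 and 10.8 CPM in 5-FU libraries. The groups overlapped, with a fitted log2 change of -0.08 (SE 0.16, edgeR adjusted p = 0.68). Its sign turned with upper-quartile factors (0.28), plain library totals (0.03) and a filter on mean count (0.17), without passing in any of them. Exons of the antisense gene AC015712.2 cover 27.5% of its exonic bases, and whether the counting used strand is not known from the sources used here. That antisense gene's own counts were 120, 103 and 97 without drug and 203, 157 and 144 with it.

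ALDH1A1 (ENSG00000165092, chromosome 9 at 72900662 to 73080442, minus strand), the classical stem cell marker of the family, was close to silent in control cells, with 6, 14 and 8 counts. The 5-FU libraries had 71, 17 and 38 counts, or 3.62, 0.89 and 1.80 CPM against 0.27, 0.63 and 0.39 CPM in control. Each 5-FU library was above each control library, but replicate 1 held most of the signal and replicate 2 lay close to the highest control. On the log2 scale the change was 2.26 (SE 0.53, edgeR adjusted p = 0.0023), a 4.80-fold rise from 0.43 ± 0.18 to 2.10 ± 1.39 CPM (mean ± SD, n = 3 per group). Without 5-FU replicate 1 it was 1.65 (edgeR adjusted p = 0.0115). Over all tested genes that library also differed more from replicates 2 and 3 (chi-square per gene 20.9 and 27.2) than these did from each other (10.3). Control replicate 2 likewise differed more from replicates 1 and 3 (23.4 and 23.9) than these did from each other (10.3). The part of these library differences in the ALDH1A1 values was not tested.

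ALDH1A2 (ENSG00000128918, chromosome 15 at 57953424 to 58497866, minus strand), known as the main retinaldehyde dehydrogenase of the early embryo, was at 0, 7 and 1 counts in the control libraries and at 19, 26 and 21 counts after 5-FU. The count of 0 in control replicate 1 allows up to 0.135 CPM, from 3 counts. Levels went from 0, 0.32 and 0.05 CPM to 0.97, 1.36 and 0.99 CPM, so the groups were apart at a level near the limit of what these libraries show. The fitted log2 change was 3.10 (SE 0.66, edgeR adjusted p = 0.00117). Over summed counts, 66 against 8, the ratio per effective library size was 8.91 (exact 95% interval 4.27 to 21.5, counting error only). Control replicate 2 holds 7 of the 8 control counts, and without it 1 count is left, at a ratio of 46.9 (8.13 to 1879). The fitted value was then 5.196, which rests on that single count. Exons on the opposite strand, of AQP9 and AC025431.1, cover 6.53% of its exonic bases, and those genes had 0 to 5 and 0 counts per library.

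Summed over the 3 ALDH1A genes, the level on plain library totals was 11.6 ± 1.10 CPM in control and 14.7 ± 0.70 CPM in 5-FU libraries. With mitochondrially encoded transcripts left out of the totals it was 12.2 ± 1.17 and 20.02 ± 1.30 CPM. The groups did not overlap on either total (exact two-sided permutation p = 0.1 each, the smallest possible), but the size of the difference depends on the scaling, and ALDH1A3, which makes up most of the sum, did not pass in the TMM-scaled test. Within the group, ALDH1A3 had 49.0, 16.7 and 27.5 counts for each ALDH1A1 count in control and 2.79, 13.5 and 6 in 5-FU libraries. ALDH1A3 therefore stayed ahead of ALDH1A1 in every library while the ratio narrowed.

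ALDH1B1 (ENSG00000137124, chromosome 9 at 38392664 to 38398661, plus strand), a mitochondrial enzyme close in sequence to ALDH2, had the largest decrease of the 10. Its principal transcript has 2 exons, against 10 to 18 in the other members. Levels were 86.3, 69.5 and 104 CPM in control and 21.9, 33.1 and 27.5 CPM in 5-FU libraries, so every 5-FU library lay far below every control library. The change was 3.15-fold, a log2 fold change of -1.66 (SE 0.18, edgeR adjusted p = 1.21e-05).

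ALDH2 (ENSG00000111275, chromosome 12 at 111766887 to 111817529, plus strand), the main acetaldehyde-oxidising enzyme of mitochondria, was at 145, 178 and 143 CPM in control and 93.1, 68.0 and 73.6 CPM in 5-FU libraries. It fell by 0.99 on the log2 scale (SE 0.15, edgeR adjusted p = 0.000109), with groups that did not overlap. ALDH1B1 had 0.60, 0.39 and 0.73 counts per ALDH2 count in control and 0.23, 0.49 and 0.37 in 5-FU libraries. These ratios overlap (exact two-sided permutation p = 0.2), so a larger fall of ALDH1B1 than of ALDH2 was not shown by this ratio.

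ALDH3A1 (ENSG00000108602, chromosome 17 at 19737984 to 19748943, minus strand) encodes a mostly cytosolic enzyme that oxidises aromatic and medium-chain aldehydes and can inactivate oxazaphosphorine drugs. It was the most abundant member, at 473, 479 and 445 CPM in control and 273, 317 and 307 CPM in 5-FU libraries. The drop, from 466 ± 18.3 to 299 ± 23.2 CPM, was 1.56-fold (log2 fold change -0.64, SE 0.13, edgeR adjusted p = 0.000827), with no overlap between groups. With upper-quartile factors, which raise the median gene by 0.36, it was -0.28 and did not pass (edgeR adjusted p = 0.0524).

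ALDH3A2 (ENSG00000072210, chromosome 17 at 19648136 to 19677598, plus strand) lies near ALDH3A1, on the opposite strand, and encodes the fatty aldehyde dehydrogenase of the endoplasmic reticulum, which is deficient in Sjögren-Larsson syndrome. Control libraries held 154, 155 and 157 CPM and 5-FU libraries 176, 154 and 155 CPM. The groups overlapped, with a log2 fold change of 0.06 (SE 0.11, edgeR adjusted p = 0.65). Settings moved it to either side of 0, and it passed as higher with upper-quartile factors (0.42) and at a mean count of at least 50 (0.31).

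ALDH3B1 (ENSG00000006534, chromosome 11 at 68008578 to 68029282, plus strand) oxidises aldehydes that arise from lipids. It was at 67.0, 68.8 and 55.8 CPM in control and 88.4, 73.7 and 74.2 CPM in 5-FU libraries. Each 5-FU library was above each control library, yet the log2 fold change of 0.30 (SE 0.13) missed the threshold (edgeR adjusted p = 0.0512). It passed with upper-quartile factors (0.66), plain library totals (0.41), a mean count of at least 50 (0.55) and limma-voom (0.30). Of the 10 members, 8 had groups that did not overlap, 3 of them higher and 5 lower after 5-FU, against 74.3% of all tested genes (38.4% higher and 35.9% lower).

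Counts of 2 genes in 1 library can be set side by side whatever the scaling. ALDH3A2 had 0.32, 0.32 and 0.35 counts per ALDH3A1 count in control and 0.65, 0.48 and 0.50 in 5-FU libraries. For ALDH3B1 this ratio was 0.14, 0.14 and 0.13 in control and 0.32, 0.23 and 0.24 in 5-FU libraries. In both cases the groups were apart (exact two-sided permutation p = 0.1, the smallest possible; these ratios were chosen after the values were seen). These ratios concern ALDH3A2 and ALDH3B1 alone; ALDH1B1, ALDH2 and ALDH7A1 had log2 fold changes of -1.66, -0.99 and -1.06 against -0.64 for ALDH3A1, differences that were not tested.

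ALDH7A1 (ENSG00000164904, chromosome 5 at 126531200 to 126595418, minus strand), also called antiquitin, acts in lysine breakdown and is the gene of pyridoxine-dependent epilepsy. It was at 148, 144 and 143 CPM in control and 60.2, 76.7 and 72.9 CPM in 5-FU libraries, a 2.08-fold decrease (log2 fold change -1.06, SE 0.12, edgeR adjusted p = 1.87e-05). Control libraries differed little (SD 2.72 CPM), and the groups were far apart. Of its 50-base stretches 2.69% occur in other genes, most often in its processed pseudogene ALDH7A1P1, which had 0 to 4 counts per library.

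ALDH18A1 (ENSG00000059573, chromosome 10 at 95605929 to 95656706, minus strand) encodes pyrroline-5-carboxylate synthase, the mitochondrial enzyme that starts proline and ornithine synthesis from glutamate. Levels were 88.5, 78.0 and 102 CPM in control and 60.1, 61.0 and 63.7 CPM in 5-FU libraries. This was the smallest change among the members that passed, a log2 fold change of -0.54 (SE 0.12, edgeR adjusted p = 0.00217), with no overlap. With upper-quartile factors it was -0.18 and did not pass (edgeR adjusted p = 0.17).

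**Figure D2:**
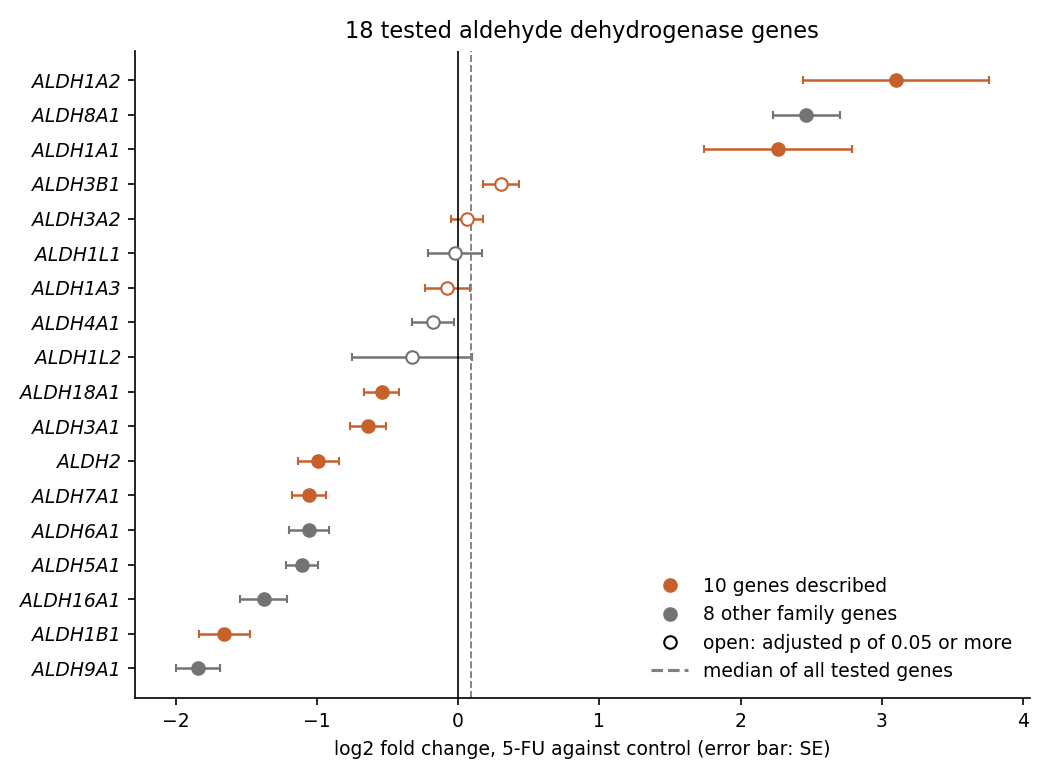
Log2 fold change, 5-FU against control, of the 18 aldehyde dehydrogenase genes tested, with SE bars; orange marks the 10 genes described, grey the 8 others, open points did not pass and the dashed line is the median of all tested genes (0.09). ALDH1A2 was highest at 3.10 and ALDH9A1 lowest at -1.84.

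The make-up of the family was read from the deposited FPKM, which divide by gene length, as each gene's share of the summed FPKM of the 10 genes in a library. A share does not depend on how libraries are scaled. ALDH3A1 took 52.3%, 53.7% and 49.1% in control and 46.7%, 51.8% and 51.1% in 5-FU libraries, with overlapping groups (exact two-sided permutation p = 0.5). Behind it in control came ALDH1B1 (11.9%), ALDH3A2 (10.4%) and ALDH18A1 (10.3%), whose ranges overlapped from one to the next. ALDH2 (6.96%), ALDH3B1 (4.19%), ALDH7A1 (3.52%), ALDH1A3 (0.87%), ALDH1A1 (0.066%) and ALDH1A2 (0.0062%) followed, each apart from its neighbour.

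In 5-FU libraries ALDH3A2 was in second place with 18.3%, 15.2% and 15.6%, from 10.3%, 10.5% and 10.5% in control. There its range overlapped those of ALDH1B1 and ALDH18A1. ALDH3B1 went from 4.19% ± 0.48 to 7.78% ± 1.003 and passed ALDH1B1, which went from 11.9% ± 2.31 to 5.68% ± 1.03 (SD, n = 3 each). ALDH1B1 (5.68%) and ALDH2 (5.28%) then overlapped, while the other neighbours in the order were apart. The groups did not overlap for ALDH3A2, ALDH3B1 and the 3 ALDH1A genes, whose shares were larger after 5-FU, or for ALDH1B1 and ALDH7A1, whose shares were smaller (exact two-sided permutation p = 0.1 each). The shares of ALDH18A1 (10.3% and 10.7%) overlapped between groups, as did those of ALDH2.

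The deposited gene length counts every annotated exon, which lowers the level of genes with many transcripts. For ALDH7A1 it is 17970 bases, 3.62 times its principal transcript of 4964 bases, whereas for ALDH2 the ratio is 1.02. With principal transcript lengths ALDH7A1 took 7.18% in control and 5.05% in 5-FU libraries, ALDH1B1 6.93% and 3.21%, and ALDH3A1 59.3% and 55.8%. The shares of ALDH2, which overlapped before, were then apart, at 3.98% ± 0.50 in control and 2.95% ± 0.58 in 5-FU libraries (exact two-sided permutation p = 0.1). The order below ALDH3A1 therefore depends on the length used. With principal transcript lengths ALDH3A2 was already second in control, apart from ALDH7A1, so its rank was the same in both groups. The gains in share of ALDH3A2 (9.67% to 14.8%) and ALDH3B1 (5.61% to 10.2%) were present with either length. A larger share is not a higher level. ALDH1A3, ALDH3A2 and ALDH3B1 did not pass in the TMM-scaled test.

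**Figure D3:**
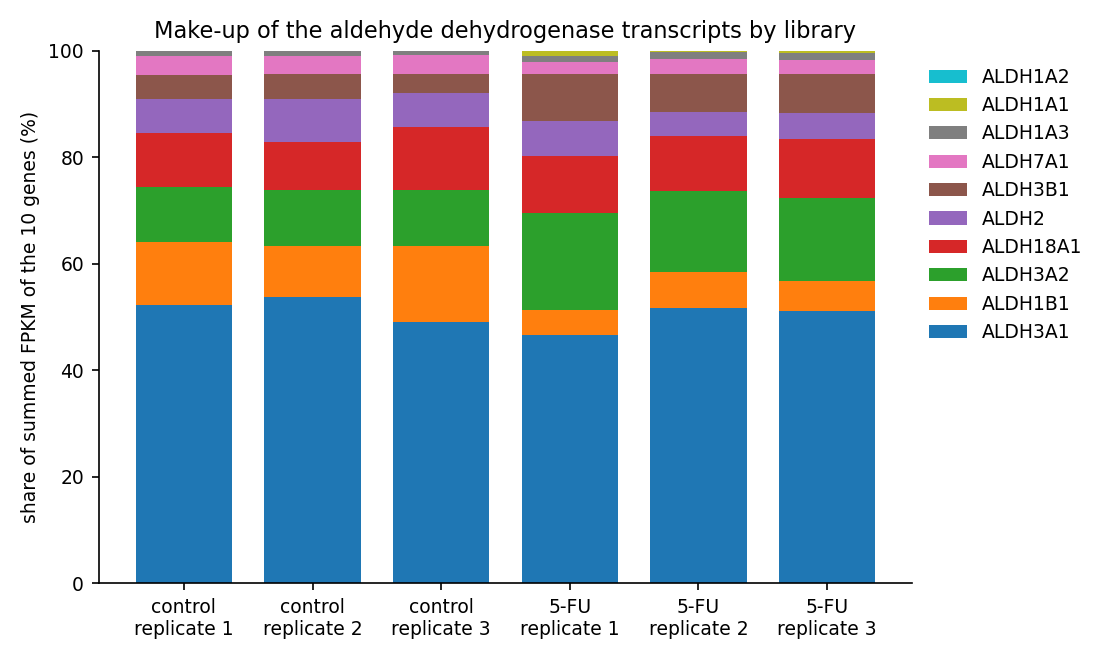
Share of the summed FPKM of the 10 aldehyde dehydrogenase genes taken by each gene, as stacked bars from 0 to 100% for the 6 libraries. ALDH3A1 held 46.7% to 53.7% in all libraries, the ALDH1B1 segment was thinner and the ALDH3A2 and ALDH3B1 segments thicker in the 5-FU libraries.

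Of the other 9 family genes 8 were tested, with 4 lower, 1 higher and 3 that did not pass (median log2 fold change -0.69). Among all tested genes 33.9% were lower and 36.3% higher. ALDH9A1, which oxidises aminoaldehydes on the way to carnitine and GABA, fell from 103, 113 and 109 CPM to 22.7, 33.4 and 34.8 CPM (log2 fold change -1.84, SE 0.16, edgeR adjusted p = 3.08e-06). ALDH5A1, the succinic semialdehyde dehydrogenase of GABA breakdown, fell from 56.3, 60.4 and 58.3 CPM to 25.0, 27.7 and 28.5 CPM (-1.11, SE 0.11). ALDH8A1 rose from 1.03, 1.08 and 1.18 CPM to 7.03, 5.48 and 5.78 CPM (2.46, SE 0.24, edgeR adjusted p = 5.56e-06). Over all 18 tested genes of the family 9 were lower and 3 higher, and each of the 3 that rose began at 1.10 CPM or less on average. For ALDH1A1 and ALDH1A2 a low start goes with the filter, which they met only through the 5-FU libraries. Of all tested genes with a mean count under 50, 57.6% were higher, with the same selection.

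Of 15 tested genes of retinoid metabolism and signalling 6 were lower and 5 higher (median log2 fold change -0.21, mean 0.50). That split is near the 33.9% lower and 36.3% higher of all tested genes. The split depends on the processing, with 3 lower and 7 higher under upper-quartile factors and 7 lower and 2 higher on filtered log2(FPKM + 1) by limma. CYP26B1, which degrades retinoic acid, rose from 22.0, 20.3 and 23.5 CPM to 76.0, 72.4 and 64.7 CPM (log2 fold change 1.69, SE 0.12, edgeR adjusted p = 1.32e-06). CRABP2, which carries retinoic acid to its receptors, fell from 634, 518 and 627 CPM to 99.1, 152 and 159 CPM (-2.12, SE 0.19, edgeR adjusted p = 3.67e-06). DHRS9, a dehydrogenase of retinol and steroids, had 3 counts over the control libraries and 171 over the 5-FU libraries. The ratio per library size was 61.5 (exact 95% interval 20.7 to 301, counting error only). Like ALDH1A1 and ALDH1A2, DHRS9 met the count filter only through the 5-FU libraries. Other low genes called higher in this list and the lists below can have entered in the same way. LRAT, CRABP1, CYP26A1, RARB and 3 others were too low to test.

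Of 12 tested genes of proline, ornithine and glutamate metabolism, the surroundings of ALDH18A1, 7 were lower and 3 higher (median -1.20). The shares over all tested genes were 33.9% and 36.3%. The 3 called higher became 1 without control replicate 2 and also without 5-FU replicate 2, and 0 on filtered log2(FPKM + 1) by limma. PYCR1, which makes the last step to proline in mitochondria, fell from 144 ± 18.4 to 32.0 ± 7.04 CPM (log2 fold change -2.17, SE 0.17). The glutamate dehydrogenase GLUD1 (-1.92, SE 0.12) and the ornithine aminotransferase OAT (-1.51, SE 0.14) fell too, all with groups that did not overlap. These values are each larger in size than that of ALDH18A1 (-0.54), a difference that was not itself tested.

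Lysine and choline breakdown, where ALDH7A1 acts, had 4 of 9 tested genes lower and 3 higher (median -0.58). Beside this, 33.9% of all tested genes were lower and 36.3% higher. On filtered log2(FPKM + 1) by limma 1 gene of the list was higher. AASS, which starts the saccharopine route of lysine breakdown upstream of ALDH7A1, rose from 15.04 ± 1.35 to 39.8 ± 3.84 CPM (log2 fold change 1.40, SE 0.13, edgeR adjusted p = 5.40e-06). GCDH, further down the route, fell (-0.92, SE 0.14), as did the choline dehydrogenase CHDH (-0.94, SE 0.15). Genes of 1 route thus moved in opposite directions.

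Among genes of fatty aldehyde and sphingolipid turnover, the setting of ALDH3A2, 4 of 10 tested were lower and the other 6 did not pass (median -0.11). With upper-quartile factors 2 were lower and 5 higher. In the main test 33.9% of all genes were lower and 36.3% higher. FAR2, which reduces fatty acyl-CoA to fatty alcohol, fell from 40.1 ± 1.53 to 7.48 ± 0.80 CPM (log2 fold change -2.42, SE 0.14). The peroxisomal enzymes HACL1 (-0.73, SE 0.16) and PHYH (-0.67, SE 0.16) fell less far.

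Of 20 tested enzymes that remove aldehydes by other reactions 12 were lower and 4 higher (median -0.84). Over all genes 33.9% were lower and 36.3% higher, and 59.9% of those with a mean count of at least 1000 were lower. AKR7A2, an aldo-keto reductase, fell from 58.7 ± 3.39 to 17.1 ± 2.09 CPM (log2 fold change -1.78, SE 0.13). ADH5 (-1.67, SE 0.15) and ESD (-1.72, SE 0.16), which act one after the other in the glutathione route of formaldehyde oxidation, fell to a like extent. AHR and its targets, which include ALDH3A1 in some tissues, had 2 of 8 lower and 2 higher (median 0.02), and 4 higher with upper-quartile factors or at a mean count of at least 50. NQO1, which is also a target of NRF2, fell from 1862 ± 379 to 384 ± 71.6 CPM (-2.28, SE 0.20). CYP1B1 fell too (-1.41, SE 0.21), while AHRR, the repressor of the receptor, rose (0.90, SE 0.17). CYP1A1, the other gene called higher, rose from 1.77 ± 0.21 to 3.81 ± 0.47 CPM (1.11, SE 0.24). AHR, ARNT, TIPARP and UGT1A6 did not pass, so the list had no common direction.

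**Figure D4:**
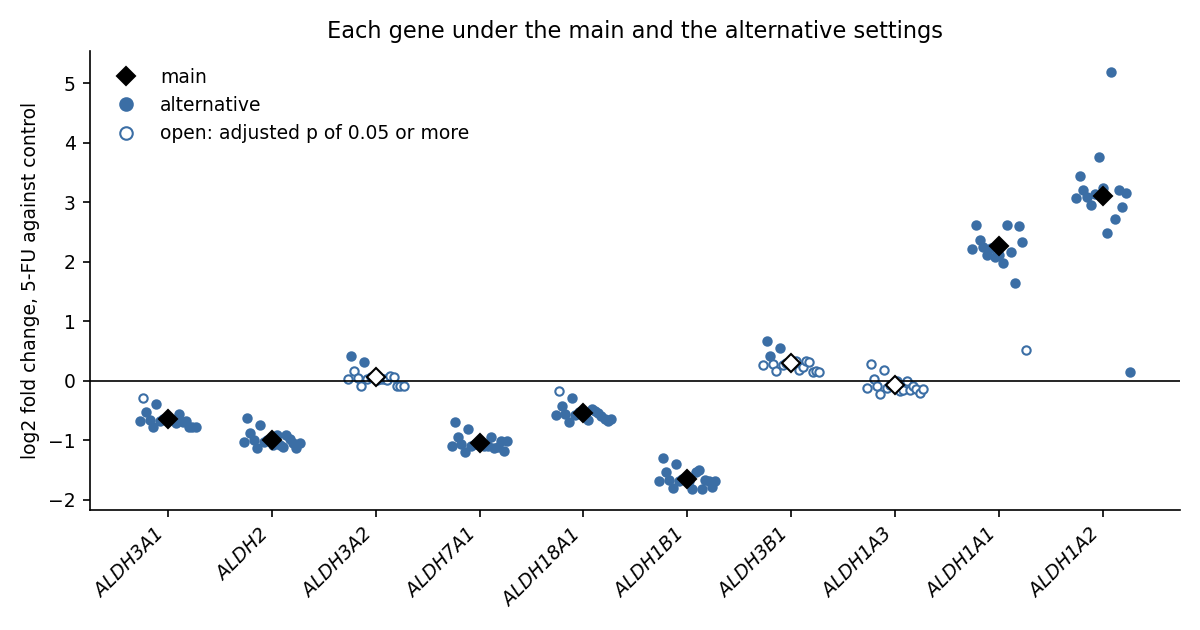
Log2 fold change of each of the 10 genes under the main setting (black diamonds) and the alternatives (blue points), with open symbols where the adjusted p was 0.05 or more. ALDH1B1, ALDH2 and ALDH7A1 stayed below 0 and passed in every setting drawn, while ALDH3A2 and ALDH1A3 lay on both sides of 0.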

How the data were processed

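The authors deposited raw counts per gene for 6 libraries and, for the same genes, FPKM values. The submitters' processing notes name the build GRCh38 and the tools featureCounts 1.5.0-p3, HISAT2 2.0.5 and DESeq2 1.16.1; the strand setting and the rule for multiply mapping reads are not known from the sources used here. Per the labels' protocols, RNA came from TRIzol lysates and libraries from the NEBNext Ultra kit. Identifiers and positions of all 58735 genes matched GENCODE release 29. The deposited FPKM equal the count over gene length and 1 constant per library, 0.892 to 1.16 times its total.

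Counts were tested with edgeR 4.0.16 in R 4.3.3 (filterByExpr, minimum count 10 and minimum total 15, TMM, group as the only term, Benjamini-Hochberg adjustment over 19771 genes). SE is the unshrunk coefficient over the square root of F. The script was tested on simulated data. Shares and ratios used exact permutation tests. Members and lists were chosen with earlier results of these data known. Named genes are the 10 members and, per other list, the 3 called genes of smallest p. CYP1A1 was added to these, with the genes of the AHR list that did not pass. PYCR3 was listed under both symbols. Same-numbered libraries did not deviate together (r = -0.072, -0.202 and 0.06), so no pairing was assumed. Alternatives were other scalings and filters, DESeq2 1.42.0, limma 3.58.1 (voom on counts, trend on log2(FPKM + 1) and log2(FPKM + 0.1) with FPKM of at least 1 in 3 libraries or no filter, scales that understate changes of low genes), a replicate block and leaving out each library. Principal transcript lengths were added after the data were seen.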

Additional observations from a re-analysis of the deposited data

How the results depend on the processing

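Of 174 values of the 10 genes under alternative settings, 158 kept their direction and side of the threshold. ALDH1B1, ALDH2 and ALDH7A1 did so in all 18 settings (log2 fold change -1.83 to -1.29, -1.14 to -0.63 and -1.20 to -0.70). Members called higher numbered 4 with upper-quartile factors, 1 on log2(FPKM + 1) with no filter, where ALDH1A1 did not pass (0.51, limma adjusted p = 0.0845), and 0 on both filtered FPKM scales, which leave ALDH1A1 and ALDH1A2 out. At a mean count of at least 50, which also leaves them out, the 2 called higher were ALDH3A2 and ALDH3B1. Members called lower numbered 3 with upper-quartile factors. The value of ALDH3A2 was -0.0873 with no low-count filter, -0.0839 and -0.0871 on filtered log2(FPKM + 1) and log2(FPKM + 0.1), and -0.0839 with no FPKM filter. That of ALDH1A3 was 0.28 with upper-quartile factors, 0.0322 with plain totals and 0.17 at a mean count of at least 50. Over shared genes these 3 scalings moved the median by 0.36, 0.11 and 0.25. Calls over all genes split 7171 higher and 6706 lower, and 9602 and 4614 with upper-quartile factors, and 4320 and 7136, or 4268 and 7119, on filtered FPKM with pseudocount 1 or 0.1. Calls in the fatty aldehyde list numbered 7 with upper-quartile factors (4 in the main test), in the aldehyde-clearing list 10 at a mean count of at least 50 (16), and in the AHR list 2 on either filtered FPKM scale (4). The share of ALDH3A1 differed by -1.84 percentage points, and by 1.43 with all 19 family genes as the whole; it was -3.54 with principal transcript lengths, and with 1 library left out it ranged from -3.12 (without control replicate 3) to -0.26 (without 5-FU replicate 1). The replicate block changed no call of the 10 genes (2 higher, 5 lower), with 13243 calls over all genes against 13877. At these depths ALDH1A1 and ALDH1A2 rest on 6 to 71 and 0 to 26 counts per library. The cause of these differences was not tested.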
